A study of Mus musculus with 8 samples.

Results

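Regions that held a Zbtb7a peak and a Mta2 peak but no Mbd3 peak were examined in chromatin of mouse kidney cortex. They were chosen by the peak lists themselves: the 3 lists were merged into union regions wherever intervals shared at least 1 bp on chromosomes 1 to 19 and X, and a region was kept when it was selected on the presence of both a Zbtb7a and a Mta2 peak and the absence of a Mbd3 peak. The rule kept 5950 of 164813 union regions, or 3.61% of them, and these 5950 are called Mta2-Zbtb7a regions here. They made up 5.09% of the 116927 regions with a Zbtb7a peak and 5.56% of the 107102 regions with both a Zbtb7a and a Mta2 peak. For comparison, 101152 regions held peaks of all 3 factors, 2622 held Zbtb7a and Mbd3 without Mta2, 17832 held Mta2 and Mbd3 without Zbtb7a, 7203 held Zbtb7a alone and 23165 held Mta2 alone.

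The study measured chromatin immunoprecipitation against Mta2, Mbd3 and Zbtb7a beside Input chromatin, all from kidney cortex of mice aged 2 months with the genotype Mta2flx/flx. These animals carry floxed Mta2 alleles, and the labels name no Cre for them. Each of the 4 groups had 2 biological replicates, numbered alike across the groups, and the stated depth was 100 M paired-end reads. The chromatin of all groups was crosslinked with 2 mM DSG and 1% formaldehyde. Only 1 peak list per factor was analysed, each standing for both animals, so no value per animal, SD or n can be given, and the cortex is a mixture of cell types whose parts in a peak cannot be told apart.

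Mta2 and Mbd3 are subunits of NuRD, a complex that joins nucleosome remodelling by a CHD ATPase with histone deacetylation by Hdac1 and Hdac2. Mta proteins hold the deacetylases, and Mbd3 or its relative Mbd2 links this core to the remodeller, so that Mbd2 and Mbd3 occupy alternative forms of the complex. Zbtb7a, also called LRF or Pokemon, is a BTB zinc finger repressor known for silencing fetal globin genes in red cells and for binding NuRD subunits there.

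The promoters with the highest Zbtb7a folds among those that held the Zbtb7a summit of a Mta2-Zbtb7a region are shown to give the DNA under these peaks. The sequences are those of RefSeq for GRCm38.p6, each being the 250 bases before the annotated transcription start site, read 5′ to 3′ on the strand of the gene. Capitals mark up to 21 bases centred on the Zbtb7a summit, as far as they fall in the stretch shown. Sptbn4, a spectrin, is shown from chr7:27396199-27396448 on the minus strand. Cldn11, a tight junction claudin, is shown from chr3:31149670-31149919 on the plus strand. Its summit lay 26 bases past the start site, so it has no capitals. Slc9b2, a sodium and proton exchanger, is shown from chr3:135307450-135307699 on the plus strand. Gm35685, a non-coding gene, is shown from chr16:20590603-20590852 on the minus strand. C1qc, a chain of complement C1q, is shown from chr4:136892915-136893164 on the minus strand. Mtus2, a microtubule-associated protein, is shown from chr5:148264967-148265216 on the plus strand.
Sptbn4: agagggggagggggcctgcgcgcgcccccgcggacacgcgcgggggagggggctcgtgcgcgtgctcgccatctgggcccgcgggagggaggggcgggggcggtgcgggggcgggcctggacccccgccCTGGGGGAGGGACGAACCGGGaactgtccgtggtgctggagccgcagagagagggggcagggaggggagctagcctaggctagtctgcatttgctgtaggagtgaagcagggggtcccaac
Cldn11: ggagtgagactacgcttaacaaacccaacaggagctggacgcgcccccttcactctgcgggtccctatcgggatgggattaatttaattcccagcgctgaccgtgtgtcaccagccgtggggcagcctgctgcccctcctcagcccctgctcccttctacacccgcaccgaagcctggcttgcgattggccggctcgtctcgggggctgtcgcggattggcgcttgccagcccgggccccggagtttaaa
Slc9b2: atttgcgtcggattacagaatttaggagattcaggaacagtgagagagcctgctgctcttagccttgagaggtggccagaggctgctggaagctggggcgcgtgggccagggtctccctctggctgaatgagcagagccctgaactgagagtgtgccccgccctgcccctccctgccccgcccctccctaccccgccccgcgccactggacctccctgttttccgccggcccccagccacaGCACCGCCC
Gm35685: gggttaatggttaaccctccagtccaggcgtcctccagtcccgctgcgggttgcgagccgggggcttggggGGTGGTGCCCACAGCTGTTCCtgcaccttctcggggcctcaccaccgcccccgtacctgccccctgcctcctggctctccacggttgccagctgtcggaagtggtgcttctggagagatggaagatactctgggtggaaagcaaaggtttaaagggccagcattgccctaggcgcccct
C1qc: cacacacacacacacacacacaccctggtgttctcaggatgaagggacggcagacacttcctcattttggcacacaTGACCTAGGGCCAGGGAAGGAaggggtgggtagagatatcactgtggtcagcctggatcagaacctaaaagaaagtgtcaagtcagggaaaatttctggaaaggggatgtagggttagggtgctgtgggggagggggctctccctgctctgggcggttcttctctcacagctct
Mtus2: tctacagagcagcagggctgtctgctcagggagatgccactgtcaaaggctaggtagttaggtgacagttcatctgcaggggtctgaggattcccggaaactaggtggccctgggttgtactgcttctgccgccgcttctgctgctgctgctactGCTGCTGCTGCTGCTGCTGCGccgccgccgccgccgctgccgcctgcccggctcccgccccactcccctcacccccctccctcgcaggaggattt

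Fold enrichment here is the authors' own value for a peak at its summit, and it was used only within its own list. The Sptbn4 region had a Zbtb7a fold of 9.79 and a Mta2 fold of 3.65, with the Zbtb7a summit 111 bases before the start site. The Cldn11 region had folds of 5.54 and 3.47 for Zbtb7a and Mta2, and the Slc9b2 region 5.0 and 1.96. The Gm35685 region, which also lies near the start of Vwa5b2, had a Zbtb7a fold of 4.91 and a Mta2 fold of 3.24. The C1qc and the Mtus2 region had the same pair of values, a Zbtb7a fold of 4.45 and a Mta2 fold of 2.82. Ranked within its own list, the Zbtb7a peak of these 6 regions stood at percentile 44.1 to 74.9 and the Mta2 peak at percentile 0.284 to 30.0. The capitals in Mtus2 fall in a run of CTG repeats.

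A Mta2-Zbtb7a region was usually 1 peak of each factor laid over the other. Of the 5950 regions, 5918 held exactly 1 peak of each, 3 held more than 1 Mta2 peak and 29 held more than 1 Zbtb7a peak. The median region was 303 bp wide, with a middle range of 253 to 379 bp, against a median of 638 bp in regions with all 3 factors. The Zbtb7a peak lay wholly within the Mta2 peak in 41.0% of regions, the Mta2 peak lay within the Zbtb7a peak in 11.0%, and the ends were staggered in 48.0%. The Mta2 peak was the wider of the pair in 71.9%, with a median of 267 bp against 212 bp for Zbtb7a.

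The summits of both factors fell close together. Their median distance was 35 bp, and 64.4% of the regions had them within 50 bp (exact 95% binomial interval 63.2% to 65.6%, which like all intervals here covers counting error only). In 59 regions the summits were on the same base. In regions with all 3 factors the Mta2 and Zbtb7a summits were within 50 bp of each other more often, in 74.0% (73.8% to 74.3%). The order depended on how the classes were matched. Among regions of the middle widths of the Mta2-Zbtb7a regions, 253 to 379 bp, the share was 64.8% in Mta2-Zbtb7a regions (63.1% to 66.6%) and 78.2% in regions with all 3 factors (77.5% to 78.9%). Where both folds lay between 2.5 and 4, a band set after the values were seen, the share was 65.2% in Mta2-Zbtb7a regions (63.5% to 66.9%) and 60.7% in regions with all 3 factors (59.7% to 61.7%), so that the direction turned round. Within the band the median folds still differed slightly, being 3.13 for Mta2 and 3.03 for Zbtb7a in Mta2-Zbtb7a regions and 3.34 and 3.14 in regions with all 3 factors. These shares over regions have no replicate check.

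The peaks in Mta2-Zbtb7a regions were among the weaker ones of both lists, which is a description because the rule used the same lists. Their median Mta2 fold was 3.13 (middle range 2.71 to 3.68), and their median Zbtb7a fold was 3.0 (2.67 to 3.56). The medians stood at percentile 19.5 of the Mta2 list and percentile 17.2 of the Zbtb7a list. Regions with all 3 factors had a median Mta2 fold of 7.72 and a median Zbtb7a fold of 5.89. The other classes that lack a factor were weak as well. Their median Zbtb7a fold was 2.94 for Zbtb7a with Mbd3 and 2.78 for Zbtb7a alone. Their median Mta2 fold was 3.65 for Mta2 with Mbd3 and 2.92 for Mta2 alone. In 44.5% of Mta2-Zbtb7a regions both peaks ranked in the lowest 25% of their lists, while 17 regions had both peaks in the upper 50%. The Zbtb7a fold reached at least 8 in 21 regions and the Mta2 fold did so in 2. At the lower end, a region near Ly6c2, a surface antigen gene of myeloid cells, had a Zbtb7a fold of 1.32 and a Mta2 fold of 1.27 although its −log10 q values were 36.4 and 28.3. It was the weakest by rank, followed by regions at Clcn4 and in Fgf12.

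The folds of the factors rose together only loosely. Across the 5950 Mta2-Zbtb7a regions the Spearman rank correlation of the Mta2 and the Zbtb7a fold was 0.25, against 0.85 across the 101152 regions with all 3 factors. Within the band of 2.5 to 4 for both folds it was 0.11 in Mta2-Zbtb7a regions (n = 3042). In regions with all 3 factors (n = 9716) it was 0.11 there too. The mirror class, Zbtb7a with Mbd3 and no Mta2, was also loose over all folds. Its correlation of the Mbd3 and the Zbtb7a fold was 0.33 (n = 2622). Both measures of a region share its chromatin and may share the Input, though how Input entered is not stated. Regions of 1 tissue are not replicates, so the correlation is given without a test.

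**Figure D1:**
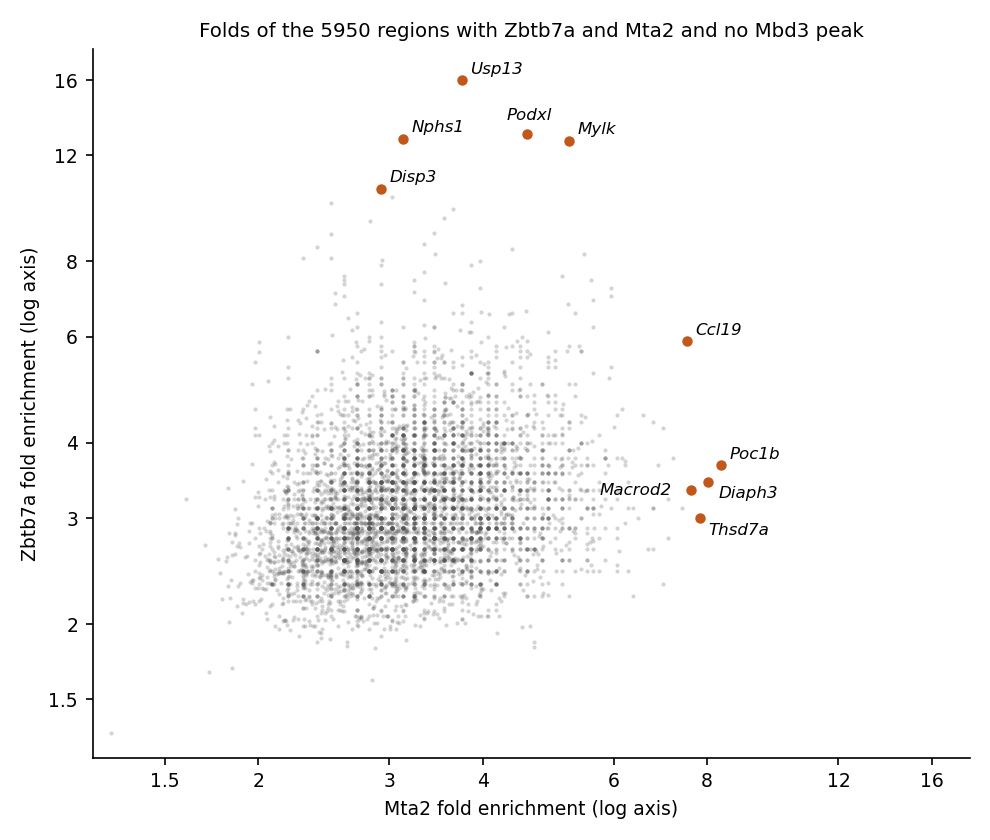
Fold enrichment of the Zbtb7a peak (vertical, log axis) against that of the Mta2 peak (horizontal, log axis) in each of the 5950 Mta2-Zbtb7a regions, 1 point per region. The named points are the regions with the 5 highest folds of each factor: those highest for Zbtb7a have Mta2 folds from 2.92 to 5.23, and those highest for Mta2 have Zbtb7a folds from 3.0 to 5.89.

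The 5 highest Zbtb7a folds fell inside 3 genes and at 2 places outside genes. A region inside Usp13, a deubiquitinase gene, at chr3:32822718-32823207 had the highest, a Zbtb7a fold of 16 with a Mta2 fold of 3.75. The second was a region outside genes at chr6:31627845-31628519, with a Zbtb7a fold of 13.0 and a Mta2 fold of 4.59. The nearest gene end, 64195 bp away, was that of Podxl, which encodes podocalyxin, the sialomucin of podocyte foot processes. The third, at chr7:30459365-30459773, had a Zbtb7a fold of 12.8 and a Mta2 fold of 3.13. It lay in Nphs1, the gene of the slit diaphragm protein nephrin, 456 bp upstream of 1 annotated start site and 1395 bp inside the span that the gene table gives. A region inside Mylk, the gene of myosin light chain kinase, followed with folds of 12.7 and 5.23 for Zbtb7a and Mta2, and a region near Disp3 with 10.6 and 2.92.

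The surroundings of these regions differed. The next Mbd3 peak lay 4574 bp from the Usp13 region, 5213 bp from the Nphs1 region and 38838 bp from the Disp3 region. It was nearer at the Podxl region, where a Mbd3 peak of fold 2.92 lay 1543 bp away, inside a second strong Zbtb7a peak of fold 12.6 that had no Mta2 peak. At the Mylk region the nearest Mbd3 peak, of fold 17.2, lay 1100 bp away in a block of peaks of all 3 factors.

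**Figure D2:**
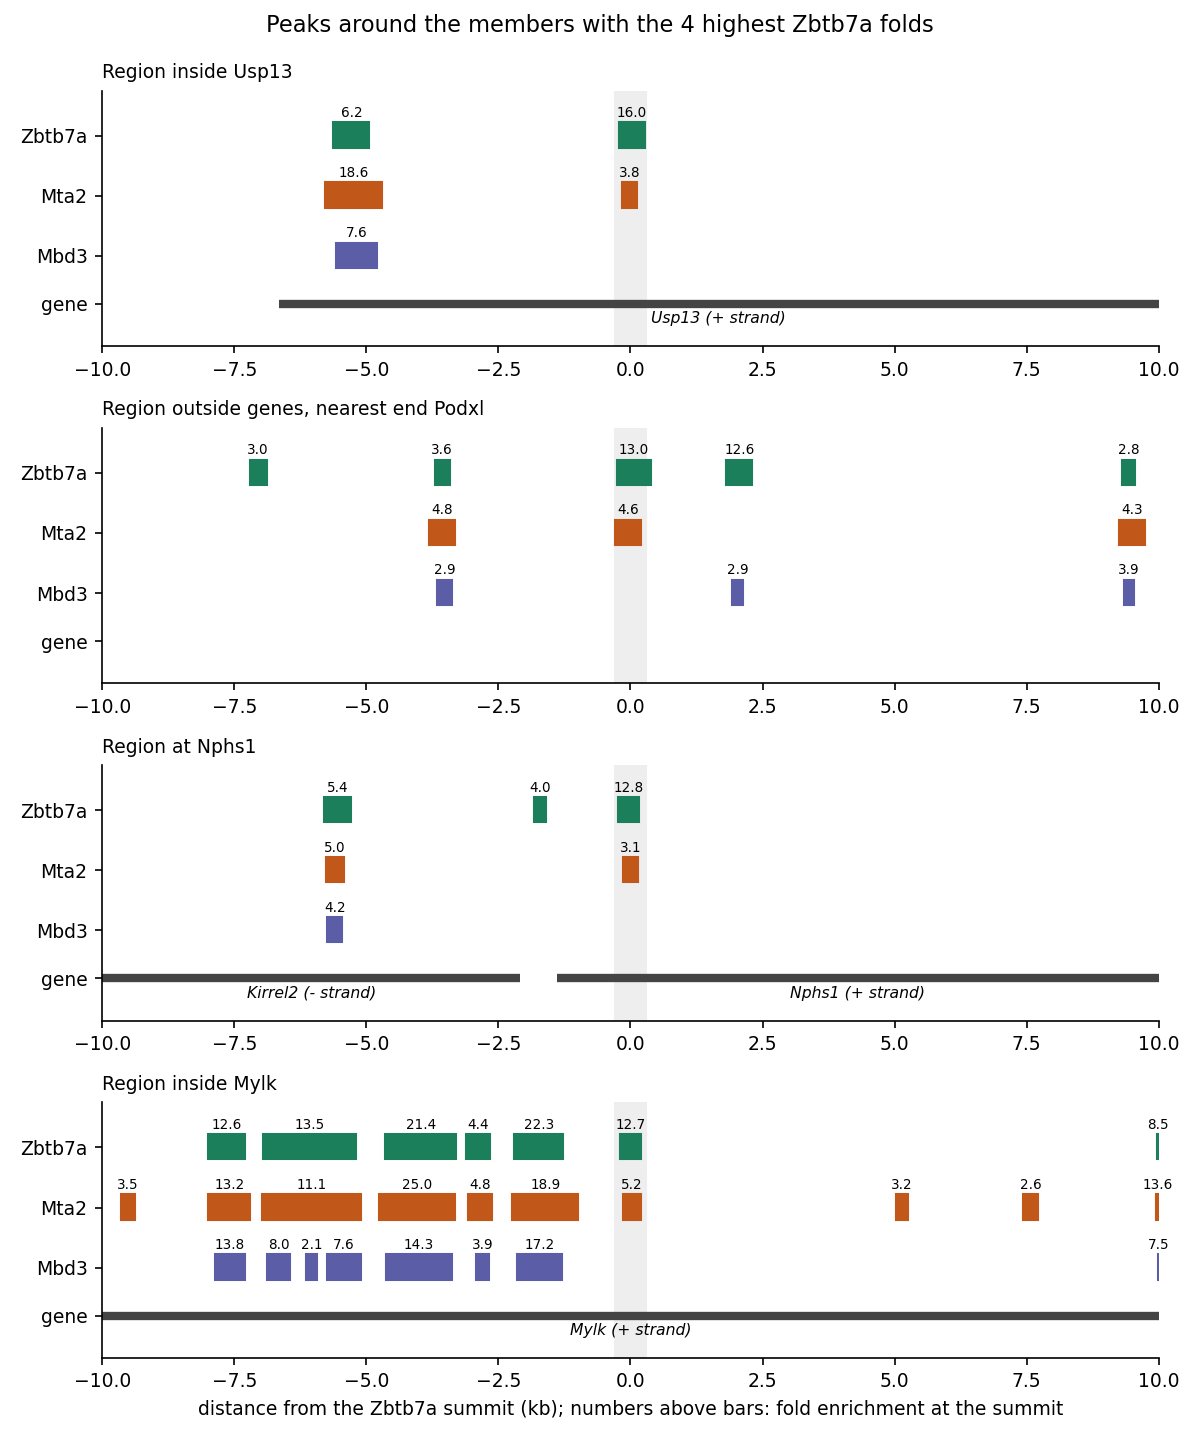
Peaks of Zbtb7a, Mta2 and Mbd3 and gene spans within 10 kb of the Zbtb7a summit in the Mta2-Zbtb7a regions with the 4 highest Zbtb7a folds, with the distance from the summit in kb on the horizontal axis, the fold of each peak above its bar and the region shaded. In each panel the shaded strip holds a Zbtb7a and a Mta2 bar and no Mbd3 bar, and the Zbtb7a fold there is 12.7 to 16.

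The highest Mta2 folds fell at other genes. Poc1b, a centriole protein gene, held a region with a Mta2 fold of 8.34, and a region nearest to Diaph3, a formin gene, had 8.03. Thsd7a, whose product on podocytes is an autoantigen of membranous nephropathy in humans, held a region with a Mta2 fold of 7.82 beside 3.0 for Zbtb7a. The next were a region inside Macrod2, nearest to an end of Flrt3, with a Mta2 fold of 7.61, and a region near the chemokine gene Ccl19 with 7.51. The Ccl19 region had a Zbtb7a fold of 5.89 and ranked highest when each region was placed by the weaker of its percentiles.

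The 10 regions highest by that measure lay at genes of varied function. The region inside Nos3, the endothelial nitric oxide synthase gene, had a Zbtb7a fold of 7.01 and a Mta2 fold of 5.95. The region inside Pecam1, an endothelial adhesion gene, had 5.34 and 5.95. The others were in or near Rbms1, Tnfrsf13c, Foxl1, Plat, Pnpla7, Jakmip3 and Ptger2. None of the 10 had a weaker peak above percentile 57.7 of its list. The widest regions, 1304 to 1941 bp, were inside Trhde, Fgf12, Kiss1r and Nsmce2 and near Atg7, and the weaker of their peaks stood at percentile 14.6 of its list or below.

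A Mta2-Zbtb7a region commonly had a Mbd3 peak in its neighbourhood. The median gap to the nearest Mbd3 peak was 2181.5 bp. The gap was at most 200 bp in 94 regions (1.58%), at most 500 bp in 913 (15.3%), at most 1 kb in 1860 (31.3%) and at most 10 kb in 82.9%. In the mirror class, Zbtb7a with Mbd3 and no Mta2, a Mta2 peak lay within 200 bp of 3.39% (2.73% to 4.16%), within 500 bp of 18%, within 1 kb of 33.2% and within 10 kb of 82.5%. The share within 200 bp was thus lower in Mta2-Zbtb7a regions, at 1.58% (1.28% to 1.93%). These gaps are to lists of unlike size, 134248 Mbd3 and 149855 Mta2 peaks. To the same Mbd3 list, regions with Zbtb7a alone had 3.94% within 200 bp (3.51% to 4.42%) and 17.5% within 500 bp. Among Mta2-Zbtb7a regions the shortest gaps were 11 bp inside Tns3, 12 bp inside Fam107a and 16 bp near Sertad4. The longest were 774182 bp near Grm8 and 534521 bp near Cldn34c4, then 502949 bp near Pla2g4a, 371995 bp near Zpld1 and 363945 bp near Tenm2.

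**Figure D3:**
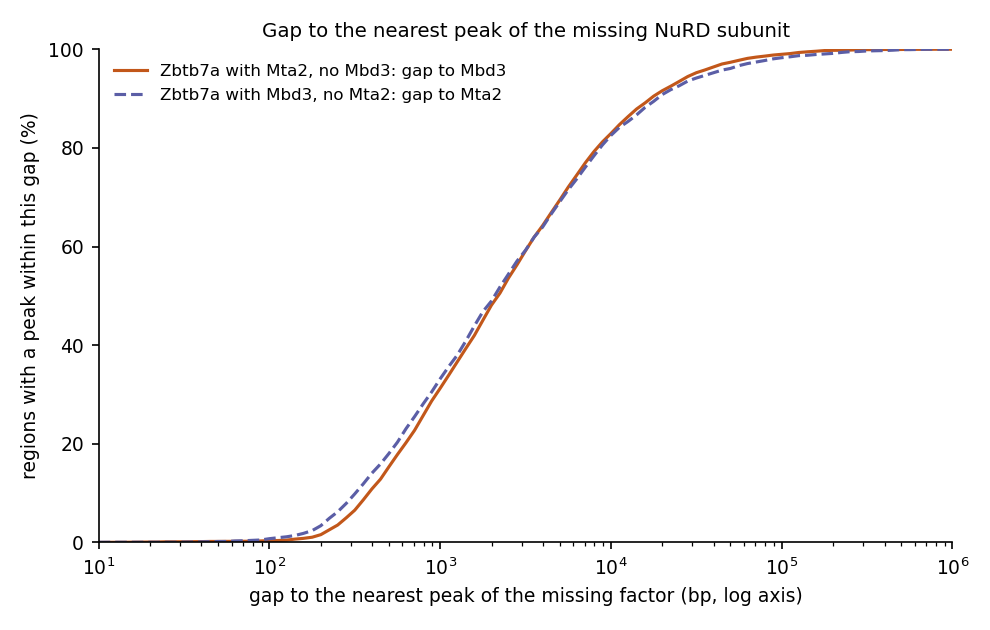
Percent of regions (vertical) that have a peak of the missing NuRD subunit within a given gap in bp (horizontal, log axis), for Mta2-Zbtb7a regions and Mbd3 (solid) and for regions with Zbtb7a and Mbd3 but no Mta2 and Mta2 (dashed). At short gaps the solid curve is the lower, with 1.58% against 3.39% at 200 bp, and at 10 kb the curves pass 82.9% and 82.5%.

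Absence of a Mbd3 peak means that none passed the authors' threshold. Signal under that threshold is not in the lists. Regions close to a Mbd3 peak and regions with a weak Mbd3 peak are set side by side instead. Gap and −log10 q are different measures, and the values are a description, since the rule used the same lists. The 94 Mta2-Zbtb7a regions within 200 bp of a Mbd3 peak had a median Mta2 fold of 2.80 and a median Zbtb7a fold of 2.84. The 144 regions with all 3 factors whose strongest Mbd3 peak had a −log10 q from 1.3 to below 2 had medians of 2.80 and 2.84 too, while all 5950 Mta2-Zbtb7a regions had 3.13 and 3.0. Those 144 regions had a median width of 415 bp, against 303 bp in all Mta2-Zbtb7a regions. Of the 144, 9.72% lay near a gene end, against 6.57% of all Mta2-Zbtb7a regions. The share was 7.45% in the 94 regions, and 6.75% where the Mbd3 peak had a −log10 q from 2 to below 5. The 9.72% rests on few regions and has no interval, so no difference in position is drawn from it. Where the Mbd3 peak reached a −log10 q from 2 to below 5, the medians were 3.28 for Mta2 and 3.0 for Zbtb7a over 4133 regions. Among the Mta2-Zbtb7a regions farther than 10 kb from any Mbd3 peak, 1016 in number, they were 3.23 and 3.11.

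As in every other class, most nearest neighbours of a Mta2-Zbtb7a region held all 3 factors. The nearest other region was of that kind for 62.3%, held Mta2 alone for 13.7% and was another Mta2-Zbtb7a region for 4.89%. Regions with all 3 factors had a neighbour of their own kind in 63.6% and a Mta2-Zbtb7a neighbour in 3.62%. In the remaining classes the nearest region held all 3 factors for 57.8% (Mta2 with Mbd3) to 62.5% (Zbtb7a with Mbd3). Of all 164813 union regions, 101152 held all 3 factors and 23165 held Mta2 alone, shares close to the 62.3% and 13.7%. From a Mta2-Zbtb7a region the median gap to any region was 1524.5 bp, and that to another Mta2-Zbtb7a region was 63596 bp. By chromosome, Mta2-Zbtb7a regions made up between 2.79% of union regions on chromosome X and 4.06% on chromosome 15.

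Position, which the rule did not use, was taken from the Zbtb7a summit, from the Mta2 summit in regions without Zbtb7a and from the Mbd3 summit where neither was present. Of the Mta2-Zbtb7a regions, 391 or 6.57% lay within 1 kb of an end of a protein-coding gene (5.95% to 7.23%), a further 56.8% lay inside genes and 36.7% outside them. Regions with all 3 factors lay near gene ends in 14.1%, and this share was the higher on 20 of 20 chromosomes. Regions with Zbtb7a and Mbd3 had 6.03%, regions with Zbtb7a alone 7.39%, regions with Mta2 alone 4.76%, and regions with Mta2 and Mbd3 but no Zbtb7a 3.89%. The Mta2-Zbtb7a share was higher than that of Mta2 with Mbd3 on 19 of 20 chromosomes and higher than that of Zbtb7a with Mbd3 on 14 of 20.

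The difference from regions with all 3 factors was not seen among peaks of like fold. With both folds between 2.5 and 4, 6.44% of 3042 Mta2-Zbtb7a regions lay near gene ends (5.6% to 7.37%) and 5.43% of 9716 regions with all 3 factors did (4.99% to 5.90%), so the direction turned round, and the Mta2-Zbtb7a share was the higher on 16 of 20 chromosomes. The excess over Mta2 with Mbd3 was also seen within the band of Mta2 folds. With the Mta2 fold in that band and the Mta2 summit giving the position, the shares were 6.34% for Mta2-Zbtb7a regions, 6.10% for all 3 factors and 3.55% for Mta2 with Mbd3 without Zbtb7a.

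**Figure D4:**
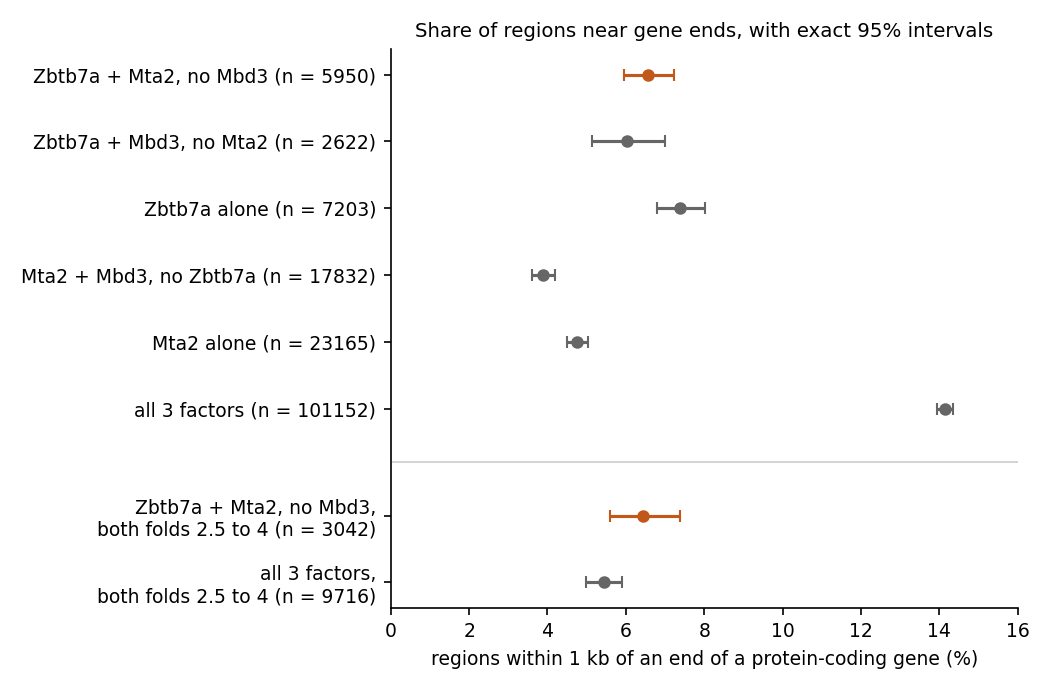
Share of regions within 1 kb of an end of a protein-coding gene (horizontal, percent) by the factors they hold, with points for the share and bars for its exact 95% binomial interval; the lower pair is limited to folds between 2.5 and 4. Mta2-Zbtb7a regions stand at 6.57% against 14.1% for all 3 factors, and at 6.44% against 5.43% in the lower pair.

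Annotated start sites gave a finer view, from a promoter table that covers 17274 of the 21631 protein-coding genes, so that its shares are lower limits. Within 1 kb of such a start lay 210 Mta2-Zbtb7a regions, or 3.53%. Their summits were spread over both sides, with 51.4% upstream (44.5% to 58.4%), and stood at a median of 175.5 bp from the start. Regions with all 3 factors near a start were upstream in 59.9% (59.0% to 60.8%) and at a median of 77 bp. Within 250 bp lay 54.8% of the Mta2-Zbtb7a regions and 80.7% of those with all 3 factors. Other classes stood nearer to the Mta2-Zbtb7a regions. Zbtb7a alone had 52% upstream, a median of 253 bp and 49.8% within 250 bp. Zbtb7a with Mbd3 had 46.4%, 310 bp and 48.2%, and Mta2 with Mbd3 had 49.3%, 254 bp and 49.9%. Side and distance were not computed within the fold band.

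The promoters they touched held less CpG than those under all 3 factors, though not within the fold band. The table holds 32619 windows from 250 bases before to 50 after a start, coding or not, and the Zbtb7a summit of a Mta2-Zbtb7a region fell in 127 of them, 92 of which are coding. Their median GC content was 55.7% and their median ratio of observed to expected CpG 0.38, against 62.3% and 0.77 in the 9781 windows under regions with all 3 factors and 53% and 0.39 in all windows. A ratio of at least 0.6 was found in 22.0% (15.2% to 30.3%), against 72.0% (71.1% to 72.9%) under all 3 factors. With both folds between 2.5 and 4 the shares were 17.9% of 67 windows (9.61% to 29.2%) and 18.8% of 144 (12.7% to 26.1%). Each lay within the interval of the other. Over all folds, the nearest classes were low too. The share was 15.6% of 128 windows under Zbtb7a alone and 23.7% of 38 under Zbtb7a with Mbd3.

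Short motifs were counted on both strands of the same 300 bases. CCGGAAG, an ETS family box, was found in 2 of the 127 windows (1.57%; 0.191% to 5.57%), in 19.3% of windows under all 3 factors and in 8.92% of all windows. In the fold band it was in 0 of 67 windows, which allows a share of up to 4.48% by 3 counts of 67 and has an exact upper limit of 5.36%, and in 4.17% of 144 under all 3 factors. Over all folds, CCGGAAG was in 1.56% of 128 windows under Zbtb7a alone and in 7.89% of 38 under Zbtb7a with Mbd3. The GC box GGGCGG was in 40.9%, 67.8% and 35.9% of the windows of Mta2-Zbtb7a regions, of all 3 factors and of the whole table. In the fold band the direction turned round, with 38.8% of the 67 windows of Mta2-Zbtb7a regions (27.1% to 51.5%) and 31.9% of the 144 under all 3 factors (24.4% to 40.2%). CCAAT was in 35.4%, 36.8% and 37.6% in the same order. GACCACC and CCCTTCC, strings close to those described for human ZBTB7A, were in 3.15% and 15.0% of the 127 windows, in 2.73% and 14.9% under all 3 factors and in 2.81% and 12.3% of all windows. In the 127 windows the share of each of these strings stood near that of all windows. Under Zbtb7a alone they were in 6.25% and 22.7% of 128 windows (2.74% to 11.9% and 15.7% to 30.9%). Under Zbtb7a with Mbd3 they were in 0% (up to 9.25%) and 13.2% of 38. In the fold band they were in 1.49% and 13.4% of the 67 windows and in 4.17% and 18.1% of the 144 under all 3 factors.

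Of 21631 protein-coding genes, 409 (1.89%) had a Mta2-Zbtb7a region within 1 kb of an end. A Mbd3 summit lay near an end of 242 of these as well, and 167 had none. The share of all protein-coding genes with such a summit is not given here, so these counts have no background and are only a description. Of the 17274 genes with a promoter sequence, 206 (1.19%) had such a region within 1 kb of a start site. A region lay inside 2662 genes (12.3%), whose median length was 64.1 kb against 17.3 kb for all genes.

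The genes with the most such regions were long. Arhgap26, the gene of a GTPase-activating protein, spanning 775 kb, held 10, and Pde4d, a cAMP phosphodiesterase gene of 1302 kb, held 8. Agap1, an Arf GTPase activator, and Mtss1, a regulator of membranes and actin, held 8 each, Mtss1 within 143 kb. Myo1e, a podocyte myosin gene mutated in human focal segmental glomerulosclerosis (FSGS), held 7 within 193 kb beside 30 regions with all 3 factors. Its 7 regions had Zbtb7a folds of 2.67 to 5.67 and Mta2 folds of 2.40 to 5.42. They made up 18.9% (7 of 37) of the regions with Zbtb7a and Mta2 in the gene, against 5.74% over all genes. The share was 9.09% in Arhgap26, 11.3% in Agap1, 16% in Mtss1 and 8.99% in Pde4d. These genes were picked for their many such regions, which tends to raise the share, so its excess over all genes is only a description. Of genes with fewer such regions, Prr5 had 33.3% (6 of 18) within 43.2 kb and Atxn7l1 had 19.4% (6 of 31).

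Gene lists for kidney cell types, FSGS and metabolism, 19 in all, held 419 distinct genes, and 9 of these had a Mta2-Zbtb7a region near an end. Among podocyte genes 1 of 28 did, Ptpro, a receptor phosphatase of podocytes, with a Zbtb7a fold of 2.34 and a Mta2 fold of 2.61, the nearest Mbd3 peak being 40615 bp away. Ptpro was also the 1 of 35 FSGS and nephrotic syndrome genes. Of the proximal tubule list, Cyp2e1, a cytochrome P450, had folds of 4.23 and 2.92 for Zbtb7a and Mta2.

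Further genes with a region near an end came from 5 other lists. Slc4a1, the anion exchanger of red cells and intercalated cells, had a Zbtb7a fold of 3.78 and a Mta2 fold of 2.71. Sox17, an endothelial transcription factor, had 3.45 and 2.32. Tgfbr2, a receptor of TGF-β, had 3.73 and 6.21, and Klf2, a flow-responsive endothelial factor, had 2.67 and 2.61. Of 12 globins and their regulators 2 did: the erythroid factor Nfe2 with 2.51 and 2.79, and Lmo2, a bridging protein of erythroid transcription complexes, with 6.11 and 3.84. None of the 15 NuRD subunit genes, 17 genes of BTB zinc finger and NuRD-recruiting factors, 27 oxidative phosphorylation and TCA cycle genes or 18 hepatocyte genes did. In all, 9 of 419 stands close to the background of 1.89%.

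By start site 5 of the 419 listed genes had a region within 1 kb, a share near the 1.19% over genes with a promoter sequence. They were Nphs1 and Ptpro, described above, and 3 more. Itga3, the integrin that holds podocytes to the basement membrane, had a region 46 bp past a start with a Zbtb7a fold of 3.45 and a Mta2 fold of 2.61. Pvalb, a calcium-binding protein of the distal convoluted tubule, had one 55 bp upstream with 4.0 and 4.17. Ikzf1, a zinc finger protein that recruits NuRD in lymphocytes, had one 60 bp past a start with 2.78 and 2.92. Of these, Itga3, Pvalb and Ikzf1 were chosen after their values were seen.

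Inside genes the lists differed, as did the lengths of their genes. Of 28 podocyte genes 15 held a Mta2-Zbtb7a region, of 35 FSGS genes 14, of 22 fibrosis and TGF-β genes 9, of 26 endothelium and mesangium genes 10 and of 30 proximal tubule genes 10. Only 1 of 27 oxidative phosphorylation and TCA cycle genes did, Idh3a, and 0 of 18 hepatocyte genes. Of 17 genes of BTB zinc finger and NuRD-recruiting factors 9 did, of 15 NuRD subunit genes 4, of 30 distal nephron genes 7, of 28 nephron progenitor genes 4 and of 26 fatty acid oxidation genes 6. Of 20 glycolysis genes 3 did, of 24 p53 and cell cycle genes 3, of 20 immune genes 2, of 20 immediate early genes 2, of 12 neuron genes 3, of 16 germ cell genes 1 and of 12 globins and regulators 1. All lists together came to 101 of 419 distinct genes, against the 12.3% of all genes. The share of such regions among those with both Zbtb7a and Mta2 takes part of the length out. It was 9.41% in FSGS genes (27 of 287; 6.29% to 13.4%), 11.3% in fibrosis and TGF-β genes (18 of 160), 8.47% in podocyte genes (21 of 248), 4.82% in proximal tubule genes (11 of 228) and 1.64% in oxidative phosphorylation and TCA cycle genes (1 of 61). Lists not tied to the kidney stood as high, with 10.4% in neuron genes (5 of 48), 9.52% in NuRD subunit genes (6 of 63) and 9.38% in BTB zinc finger and NuRD-recruiting factor genes (15 of 160), all against 5.74% over all protein-coding genes, where a region inside overlapping genes counts for each.

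**Figure D5:**
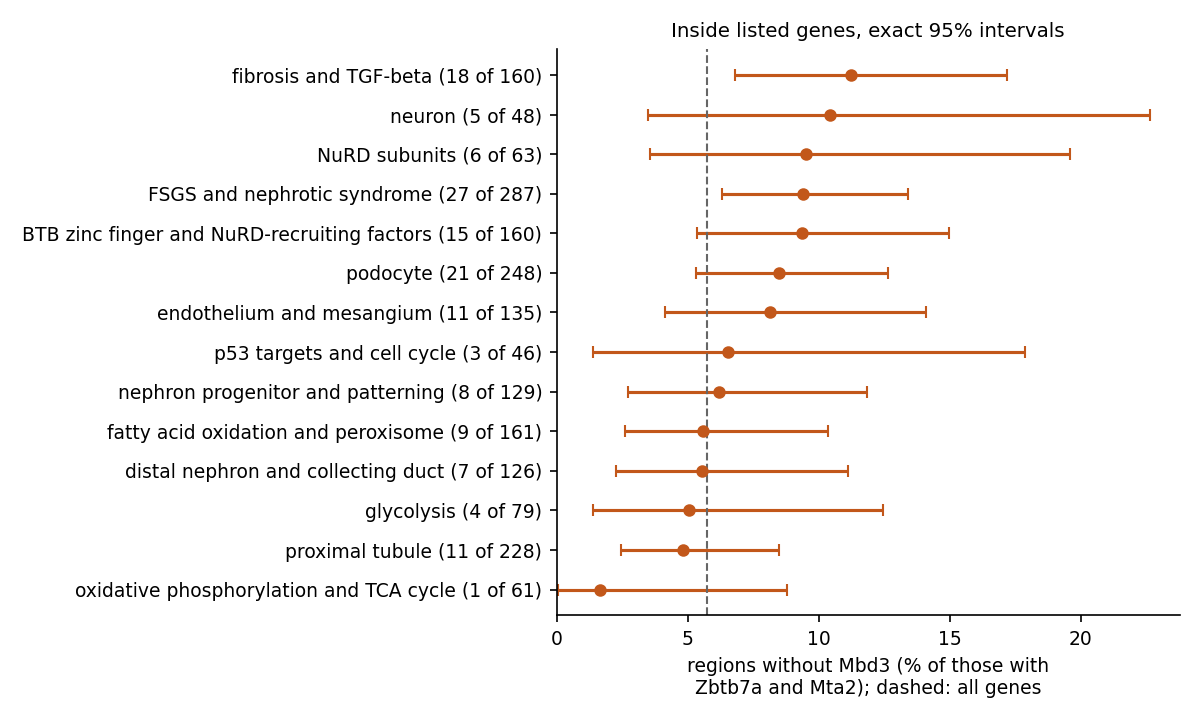
Regions without a Mbd3 peak as a percent of the regions with Zbtb7a and Mta2 inside the genes of each list (horizontal), with exact 95% binomial intervals and the counts in parentheses, for the lists with at least 40 such regions; the dashed line is the 5.74% over all protein-coding genes. The fibrosis and TGF-β list stands highest at 11.3% and the oxidative phosphorylation list lowest at 1.64%, and the intervals of all lists shown but fibrosis and FSGS span the line.

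Single genes carried much of these counts. Myo1e gave 7 of the 27 regions in FSGS genes, and Smad3, the transcription factor of TGF-β signalling, gave 5 of the 18 in the fibrosis list, with Zbtb7a folds from 2.16 to 4.23. Among podocyte genes, Nes, an intermediate filament gene, held a region with a Zbtb7a fold of 7.08 and a Mta2 fold of 2.54. Of the FSGS list, Crb2, a polarity gene mutated in human nephrotic syndrome, held one with 7.23 and 3.96, and Inf2, a formin gene mutated in human FSGS, held 3. Zbtb7c, a paralogue of Zbtb7a, held 3 regions with Zbtb7a folds of 7.45, 7.34 and 4.78 and Mta2 folds of 2.61, 2.61 and 3.02. Zbtb7a itself held 1, with folds of 3.53 and 2.85. Of the NuRD subunit genes, Mta1 and Mbd2 held 2 each and Chd3 and Gatad2a 1 each. Smad3, Nes, Crb2, Inf2, Zbtb7c, Zbtb7a and the NuRD genes were named after their values were seen.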

How the data were processed

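Peak lists of Mta2, Mbd3 and Zbtb7a ChIP in kidney cortex were analysed. The tools named in the submitters' processing notes are MACS2, Bowtie2, bedtools and deepTools, with the build mm10. No version is given in the sources used here. The deposited lists have no header and follow the narrowPeak layout. Per peak they hold a deposited fold over background (a linear ratio from the authors' peak caller), the authors' −log10 q, and where the deposited summit lies within the interval (an offset in bp). How the 2 animals were combined, and how Input entered, is not stated.

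Union regions, gaps, positions and intervals were computed with Python 3.11.15, pandas 2.3.3, NumPy 2.4.6 and SciPy 1.17.1, and the interval code was tested on simulated data. A region with several peaks of a factor took the one with the highest fold. Gene spans and promoters came from RefSeq for GRCm38.p6, whose coordinates mm10 shares. All 423 listed symbols matched, 4 of them by synonym. The members and gene lists were chosen with earlier results of these data known, so shares carry exact (Clopper-Pearson) 95% intervals and no p-value.

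Regions were named by rule: the 10 highest by the weaker percentile, the 5 highest folds of each factor, the 5 widest, the 5 farthest from and the 3 nearest to Mbd3, the 3 weakest, listed genes with a region within 1 kb of an end, the 5 genes with most regions and the 6 promoters with the highest Zbtb7a fold. The alternatives were stricter −log10 q limits, stricter overlap and Mbd3 gaps, other windows and other ways of placing or summarising peaks. Read depth per library was not analysed here, and 1 listed gene is not reported here.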

Additional observations from a re-analysis of the deposited data

Results flagged for a closer look

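Chromosome Y was left out of the regions described above, so its peaks lie outside the main measurement. By the same rule it held 8 regions with Zbtb7a and Mta2 peaks and no Mbd3 peak, among 190 union regions there. This share of 4.21% stands close to the 3.61% on the autosomes and chromosome X.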

How the results depend on the processing

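The count of 5950 Mta2-Zbtb7a regions changed most with the limit on −log10 q. With at least 10 in all lists it was 3231, but this limit also dropped the weaker Mbd3 peaks. With at least 10 for Mta2 and Zbtb7a while all Mbd3 peaks were kept it was 349. Most of the 3231 thus held a Mbd3 peak under the limit and were not among the 5950. A limit of 2, a shared stretch of at least 50% of the shorter peak, summits within 200 bp, no Mbd3 peak within 500 bp or 1 kb, and autosomes only gave 4090 to 5868 regions. The share near gene ends, 6.57%, was 3.66% with windows of 0.5 kb, 17.9% with 3 kb and 8.88% in the 349 stronger regions, and 3.53% with start sites in place of ends, an alternative chosen after seeing the data. The number of genes with a region near an end, 409, was 224 with 0.5 kb and 1194 with 3 kb. The median Mta2 fold, 3.13, was 3.23 without regions within 1 kb of a Mbd3 peak. The difference of the share near gene ends, Mta2-Zbtb7a regions minus all 3 factors, was −7.57 percentage points. In alternatives chosen after seeing the data it was −4.76 with 3 kb and turned round to 1.01 with both folds between 2.5 and 4. In the same fold band the difference in the share with Mta2 and Zbtb7a summits within 50 bp, −9.66 points, turned round to 4.52 (among regions of like width, 253 to 379 bp, it was −13.3), and that in CpG-rich promoter windows, −49.9 points, was −0.84. The remaining alternatives stayed within the limits used for each value. No paired analysis was possible because each list stands for both animals, and for the same reason no replicate could be left out. A missing Mbd3 peak may lie under the threshold at this depth.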
